A study of Homo sapiens with 6 samples.

Results

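The hypoxia-inducible factor (HIF) pathway was followed through 10 genes in cells of the established lung adenocarcinoma line A549 that were kept in S-AlgLung or AlgLung hydrogels, with 3 RNA sequencing libraries per hydrogel. The 10 genes were taken by name from the deposited count table of 62703 genes: HIF1A, EPAS1, EGLN1, EGLN3, CA9, CA12, ADM, VEGFA, ANKRD37 and NDRG1. All 10 were found and all 10 passed the low-count filter, among 18544 genes tested. The labels give the hydrogel as the only treatment and leave the letter S unexplained, while the series title speaks of sulfation in the tumour matrix. No oxygen level is given in the sources used here for either hydrogel. The labels do not say whether the libraries came from separate cultures, so the spread behind each p-value is that between these libraries and may be technical.

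HIF is a pair of proteins, an oxygen-regulated alpha subunit (made by HIF1A or EPAS1) and a stable partner, ARNT. In the presence of oxygen, prolyl hydroxylases of the EGLN family mark the alpha subunit for destruction through the VHL ubiquitin ligase, so the protein is controlled far more by its breakdown than by its mRNA. When the alpha subunit persists, it binds hypoxia response elements and switches on genes for pH control (CA9, CA12), vessel growth and tone (VEGFA, ADM) and its own restraint (EGLN1, EGLN3). Many of these genes also answer to other transcription factors.

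Depth was similar in all libraries, at 22978408 to 26495444 counts. S-AlgLung replicate 3 stood apart on the second principal component, at 49.2, against -20.3 and -33.4 in the other S-AlgLung libraries and -19.2 to 21.8 in AlgLung, so results are also given without it. All 10 epithelial and A549 markers were above 1 CPM (counts scaled to a fixed library total), with summed levels of 17788 to 25969 CPM in S-AlgLung and 26101 to 29680 CPM in AlgLung. Fibroblast markers summed to 6.45 to 10.1 CPM in S-AlgLung and 7.70 to 8.87 CPM in AlgLung, and endothelial markers to 2.83 to 4.16 and 2.26 to 3.84 CPM. Of 5 immune markers, CD14 and CD68 made up nearly all of a sum of 203 to 216 CPM in S-AlgLung and 97.1 to 129 CPM in AlgLung, while PTPRC, the common leukocyte antigen, had 5 counts in S-AlgLung replicate 2 and 0 in the other libraries. The part of these markers in the results below was not tested.

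RefSeq promoter windows (GRCh38.p14, 250 bases before to 50 bases after a start) were found for 8 of the 10 genes, with no entry for VEGFA and NDRG1. They were searched on both strands for the 5 letters ACGTG, a core of the hypoxia response element, and for GCGTG, its other form. ACGTG was in 3 of the 8 (CA9, EGLN1 and ANKRD37), against 21.4% of 35116 promoters in the table. GCGTG was in 4 of the 8 (HIF1A, EPAS1, CA12 and ADM), against 36.5%. HIF1A had windows at chr14:61695263-61695562 and chr14:61697462-61697761, and only the first held GCGTG. The percentages are of promoters and not of genes. RefSeq starts need not be the outer ends of the genes given below. EGLN3, on the minus strand, reaches 34462774 in the deposited table, far from its window. The windows of 5 genes are shown 5′ to 3′ because they set the genes called in the comparison below (CA9, ADM and EGLN3) beside 2 that were not called (EGLN1 and ANKRD37); capitals mark ACGTG on either strand. They lie at chr9:35673678-35673977 (plus strand) for CA9, chr11:10304823-10305122 (plus) for ADM, chr14:33951025-33951324 (minus) for EGLN3, chr1:231422238-231422537 (minus) for EGLN1 and chr4:185396591-185396890 (plus) for ANKRD37.
CA9: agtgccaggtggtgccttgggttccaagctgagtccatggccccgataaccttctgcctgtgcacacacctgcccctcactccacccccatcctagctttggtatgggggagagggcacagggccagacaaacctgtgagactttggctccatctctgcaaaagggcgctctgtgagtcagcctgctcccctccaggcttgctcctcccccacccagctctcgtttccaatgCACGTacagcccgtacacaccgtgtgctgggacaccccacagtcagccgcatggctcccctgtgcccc
ADM: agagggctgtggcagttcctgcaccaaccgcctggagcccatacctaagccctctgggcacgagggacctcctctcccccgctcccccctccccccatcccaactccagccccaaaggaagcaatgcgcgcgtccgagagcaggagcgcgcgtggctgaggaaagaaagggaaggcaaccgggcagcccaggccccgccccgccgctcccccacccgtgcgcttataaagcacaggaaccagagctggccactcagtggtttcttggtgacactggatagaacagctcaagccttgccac
EGLN3: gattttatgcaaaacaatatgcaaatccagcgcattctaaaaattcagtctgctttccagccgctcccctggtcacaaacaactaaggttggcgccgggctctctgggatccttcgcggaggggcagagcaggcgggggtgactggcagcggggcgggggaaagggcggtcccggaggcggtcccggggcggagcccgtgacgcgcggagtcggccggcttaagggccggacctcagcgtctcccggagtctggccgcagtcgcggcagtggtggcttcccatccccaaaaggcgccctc
EGLN1: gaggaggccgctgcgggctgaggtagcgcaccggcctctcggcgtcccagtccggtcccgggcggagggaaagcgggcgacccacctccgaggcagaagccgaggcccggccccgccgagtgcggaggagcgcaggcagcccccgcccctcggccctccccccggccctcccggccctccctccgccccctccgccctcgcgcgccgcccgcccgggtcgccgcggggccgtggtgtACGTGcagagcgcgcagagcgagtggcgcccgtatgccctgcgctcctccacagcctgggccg
ANKRD37: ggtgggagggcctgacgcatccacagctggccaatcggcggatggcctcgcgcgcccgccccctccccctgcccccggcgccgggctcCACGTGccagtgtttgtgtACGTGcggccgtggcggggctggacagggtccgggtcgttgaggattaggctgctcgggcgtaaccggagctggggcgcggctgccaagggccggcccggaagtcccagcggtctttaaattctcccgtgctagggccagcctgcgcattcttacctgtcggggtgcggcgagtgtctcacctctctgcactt
The match in CA9 began 18 bases before the start and read on the opposite strand. That in EGLN1 began 13 bases before the start. ANKRD37 had 3 matches, of which 2 overlap as a palindrome, with the first beginning 162 bases before the start. Of the 3 called genes with a window, CA9 held ACGTG, ADM held GCGTG and EGLN3 held neither. Of the uncalled genes, EGLN1 and ANKRD37 held ACGTG, and HIF1A, EPAS1 and CA12 held GCGTG only. Neither form thus separated the called from the uncalled genes, and the most ACGTG matches were in ANKRD37, which was not called. A match describes the letters only, and its absence concerns this window only.

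Setting S-AlgLung against AlgLung addresses how the pathway's mRNAs differ with the hydrogel that holds the cells. Among the HIF target genes of the 10, CA9, ADM, VEGFA and EGLN3 were higher in S-AlgLung by 1.98-fold to 2.99-fold. The oxygen sensor EGLN1, CA12 and ANKRD37, also HIF targets, and NDRG1, which hypoxia raises in many cells, were not called in either direction. Nor were the mRNAs of the HIF alpha subunits HIF1A and EPAS1. Of the 10 genes, 4 rose and 0 fell (edgeR quasi-likelihood test, Benjamini-Hochberg adjusted p under 0.05). Over all tested genes 5.14% were called, 3.15% higher and 1.99% lower. At an unadjusted p under 0.05 the numbers among the 10 were also 4 and 0, and DESeq2 and limma-voom each called 4 higher and 0 lower. Over all 18544 tested genes, 1687 were higher and 1078 lower at an unadjusted p under 0.05. DESeq2 called 594 higher and 399 lower over all genes, and limma-voom 495 and 350. The median log2 fold change of the 10 was 0.37, against 0.03 over all tested genes. In 5 of the 10 every S-AlgLung library was above every AlgLung library, and in 1 every S-AlgLung library was below, against 10.4% and 8.05% of all tested genes. The 10 genes were chosen with earlier results of these data known, so the values over all tested genes give the background and do not test the 10. In such bulk libraries a higher level in each cell and a larger share of cells that express a gene cannot be told apart.

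**Figure D1:**
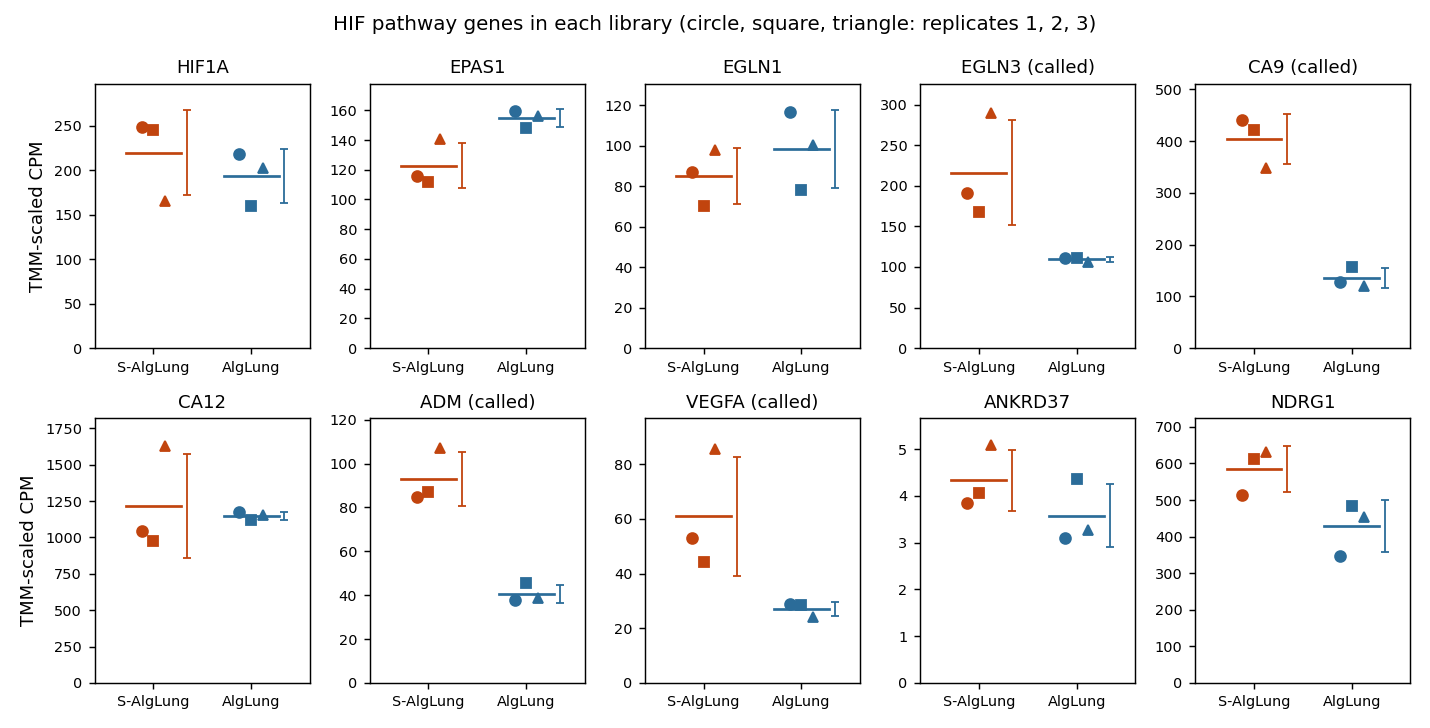
TMM-scaled CPM (linear axis from 0) of the 10 genes in each library, S-AlgLung at left and AlgLung at right; horizontal lines are means and error bars SD (n = 3). CA9, ADM, VEGFA and EGLN3, marked as called, have all 3 S-AlgLung libraries above all 3 AlgLung libraries, as does NDRG1, which was not called.

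CA9 encodes carbonic anhydrase IX, a membrane-bound enzyme that hydrates carbon dioxide at the outer cell surface and is a widely used marker of HIF activity (chromosome 9, 35673928 to 35681159, GRCh38, plus strand). Its TMM-scaled level was 441, 421 and 349 CPM in S-AlgLung replicates 1 to 3, against 127, 157 and 120 CPM in AlgLung replicates 1 to 3. The lowest S-AlgLung library was more than 2 times as high as the highest AlgLung library, and S-AlgLung replicate 3 was the lowest of its group. The log2 fold change was 1.58 (SE 0.25, edgeR adjusted p = 0.000109), which is 2.99-fold, the largest of the 10 genes. Without S-AlgLung replicate 3 it was 1.64.

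Part of the CA9 reads cannot be assigned to it alone. ARHGEF39, a gene on the other strand, overlaps 571 of the 1598 exon bases of CA9 (35.7%) and had 54.2% of its counts, with the counting's use of strand not given in the sources used here. ARHGEF39 itself stood at 224, 214 and 177 CPM in S-AlgLung and 87.7, 97.1 and 74.3 CPM in AlgLung (log2 fold change 1.25, adjusted p = 0.00112). When every ARHGEF39 count was taken off CA9, as though all were shared reads, the remainder was 217, 207 and 172 CPM in S-AlgLung and 39.8, 59.7 and 45.8 CPM in AlgLung, a 4.10-fold difference (log2 fold change 2.03, SE 0.25, edgeR adjusted p = 3.48e-06). The call on CA9 thus held for the reads that remained.

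CA12 encodes carbonic anhydrase XII, which also faces the outside of the cell and is also induced by HIF in many tumours (chromosome 15, 63321378 to 63381846, minus strand). It was at 1048, 973 and 1630 CPM in S-AlgLung and at 1176, 1121 and 1154 CPM in AlgLung. S-AlgLung replicates 1 and 2 lay below all AlgLung libraries and replicate 3 lay above them, so the groups overlapped. The log2 fold change was 0.08 (SE 0.27, 95% interval of 1.96 SE on each side -0.46 to 0.62, adjusted p = 0.947). Leaving out S-AlgLung replicate 3 made it -0.22 (adjusted p = 0.669). Scaled also by exon length, as CPM per kilobase of exon (RPKM), CA9 was at 253 ± 30.4 and CA12 at 174 ± 51.4 in S-AlgLung (SD, n = 3), whereas in AlgLung CA9 was at 84.4 ± 12.1 and CA12 at 164 ± 3.95. With the counts as deposited these 2 were the highest of the 10 genes per length in both hydrogels, and in S-AlgLung replicate 3 CA9 was at 218 and CA12 at 233. With ARHGEF39 counts taken off, CA9 was at 124 ± 14.9 in S-AlgLung and 30.3 ± 6.39 in AlgLung over all its exon bases, or at 193 ± 23.2 in S-AlgLung and 47.2 ± 9.95 in AlgLung over its 1027 unshared bases. The order of CA9 and CA12 within S-AlgLung, and the place of CA9 among the genes in AlgLung, therefore depend on how shared reads are assigned. They also rest on the exon lengths of the deposited table, 1598 bases for CA9 and 6998 for CA12.

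ADM encodes adrenomedullin, a secreted peptide that widens vessels and is a common HIF target (chromosome 11, 10305073 to 10307397, plus strand). It was at 84.9, 87.2 and 107 CPM in S-AlgLung and 37.7, 45.5 and 38.5 CPM in AlgLung. The groups were far apart, with S-AlgLung replicate 3 the highest library. The log2 fold change was 1.20 (SE 0.22, adjusted p = 0.000841), a 2.30-fold difference, and 1.05 without S-AlgLung replicate 3.

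VEGFA encodes vascular endothelial growth factor A, the main signal for vessel growth towards hypoxic tissue (chromosome 6, 43770184 to 43786487, plus strand). It was at 52.9, 44.2 and 85.7 CPM in S-AlgLung, against 28.7, 28.4 and 24.0 CPM in AlgLung. All S-AlgLung libraries were above all AlgLung libraries, and replicate 3 was far above the other two. The log2 fold change was 1.17 (SE 0.24, adjusted p = 0.00201), a 2.25-fold difference. Without that library it was 0.81 and still called (adjusted p = 0.00217).

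EGLN3 encodes a prolyl hydroxylase that marks HIF alpha subunits for breakdown and is itself induced by HIF (chromosome 14, 33924227 to 34462774, minus strand). It was at 191, 168 and 290 CPM in S-AlgLung and at 111, 111 and 106 CPM in AlgLung. The AlgLung libraries were nearly equal, and S-AlgLung replicate 3 was again the highest. The log2 fold change was 0.98 (SE 0.25, adjusted p = 0.0156), a 1.98-fold difference. The call was lost without AlgLung replicate 1, 2 or 3 (adjusted p = 0.115, 0.102 and 0.197, with log2 fold changes of 0.94, 0.99 and 0.90), and it held without S-AlgLung replicate 3 at a log2 fold change of 0.68 (adjusted p = 0.0225).

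EGLN1, which encodes PHD2, the main oxygen sensor of the pathway in most cells, was at 87.1, 70.3 and 97.9 CPM in S-AlgLung and 117, 78.4 and 100 CPM in AlgLung (chromosome 1, 231363751 to 231422287, minus strand). The groups overlapped, and the log2 fold change was -0.21 (SE 0.24, adjusted p = 0.779), or -0.36 without S-AlgLung replicate 3 (adjusted p = 0.3405). The gene ENSG00000287856 on the same strand shares 55.8% of its exon bases and had 68.6% of its counts. With those counts taken off, the log2 fold change was -0.31 (adjusted p = 0.6001).

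The mRNAs of both alpha subunits missed the threshold. HIF1A (chromosome 14, 61695513 to 61748259, plus strand) was at 249, 245 and 165 CPM in S-AlgLung and 218, 160 and 203 CPM in AlgLung. S-AlgLung replicate 3 lay near the lowest AlgLung library and the other two lay above all of AlgLung. The log2 fold change was 0.18 (SE 0.25, 95% interval -0.31 to 0.67, adjusted p = 0.835), or 0.32 without S-AlgLung replicate 3 (adjusted p = 0.426). EPAS1, which encodes HIF-2 alpha (chromosome 2, 46293667 to 46386697, plus strand), was at 116, 112 and 140 CPM in S-AlgLung and 160, 148 and 156 CPM in AlgLung. Every S-AlgLung library was below every AlgLung library, yet the log2 fold change of -0.33 (SE 0.23, 95% interval -0.79 to 0.12) was not called (adjusted p = 0.578), nor was the -0.47 without S-AlgLung replicate 3 (adjusted p = 0.182). An mRNA level does not give the level of the protein, which was not measured.

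NDRG1, a stress-responsive gene raised by hypoxia in many cell types (chromosome 8, 133237175 to 133302022, minus strand), was at 513, 612 and 631 CPM in S-AlgLung and 348, 484 and 453 CPM in AlgLung. Every S-AlgLung library was above every AlgLung library, by a small margin, and the log2 fold change of 0.45 (SE 0.26) was not called (adjusted p = 0.446), nor was the 0.36 without S-AlgLung replicate 3 (adjusted p = 0.387). ANKRD37, an ankyrin repeat gene and HIF-1 target (chromosome 4, 185396021 to 185400628, plus strand), was the least abundant of the 10, with 581 counts in all libraries together. It was at 3.85, 4.05 and 5.08 CPM in S-AlgLung and 3.10, 4.36 and 3.27 CPM in AlgLung, overlapping groups (log2 fold change 0.28, SE 0.27, adjusted p = 0.732; 0.12 without S-AlgLung replicate 3, adjusted p = 0.857). UFSP2 on the other strand overlaps 40.3% of its exon bases and had 232% of its counts, so its own level is uncertain.

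The RPKM scale divides by the exon length of the deposited table, from 1598 bases for CA9 to 14431 for VEGFA. The lengths of the transcripts present in these cells were not determined, so the order of genes on this scale rests on the table's lengths. With the counts as deposited, NDRG1 was at 48.8 ± 5.27 in S-AlgLung and 35.7 ± 5.96 in AlgLung (SD, n = 3 each, here and below). HIF1A followed at 42.7 ± 9.24 in S-AlgLung and 37.6 ± 5.85 in AlgLung, and ADM at 40.0 ± 5.25 in S-AlgLung and 17.4 ± 1.85 in AlgLung. In S-AlgLung HIF1A differed from each of the other two by less than its own SD, and NDRG1 was above ADM in every library. In AlgLung ADM lay below the other two in every library. EGLN3 was at 29.4 ± 8.80 in S-AlgLung and 14.9 ± 0.423 in AlgLung, EPAS1 at 16.8 ± 2.11 and 21.2 ± 0.809, and EGLN1 at 15.8 ± 2.58 and 18.3 ± 3.56, in the same order of hydrogels. On average EGLN3 stood above EPAS1 in S-AlgLung and below it in AlgLung. The place of EGLN1 depends on the counts that ENSG00000287856 shares: with them taken off, EGLN1 was at 4.78 ± 0.722 in S-AlgLung and 5.94 ± 1.81 in AlgLung over all its exon bases, or at 10.8 ± 1.64 and 13.4 ± 4.10 over its 2377 unshared bases, in the same order of hydrogels. The lowest 2 were VEGFA, at 4.22 ± 1.52 in S-AlgLung and 1.88 ± 0.181 in AlgLung, and ANKRD37, at 1.92 ± 0.292 in S-AlgLung and 1.59 ± 0.303 in AlgLung.

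The S-AlgLung libraries were not alike across these genes. Relative to the mean log2 CPM of AlgLung, VEGFA was 0.97, 0.71 and 1.66 higher in S-AlgLung replicates 1 to 3, EGLN3 0.80, 0.62 and 1.40 higher, and ADM 1.07, 1.11 and 1.40 higher. For CA9 the differences were 1.72, 1.65 and 1.38. S-AlgLung replicate 3 was thus the highest library of its group for VEGFA, EGLN3 and ADM and the lowest for CA9 and HIF1A. It was also the highest for CA12, NDRG1, ANKRD37, EPAS1 and EGLN1. The range among the S-AlgLung libraries was widest for VEGFA, at 0.96 on the log2 scale, and narrowest for NDRG1, at 0.30. The median over the 10 genes was 0.33, 0.44 and 0.54 in S-AlgLung replicates 1 to 3, against 0.01, -0.01 and 0.04 over all tested genes.

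**Figure D2:**
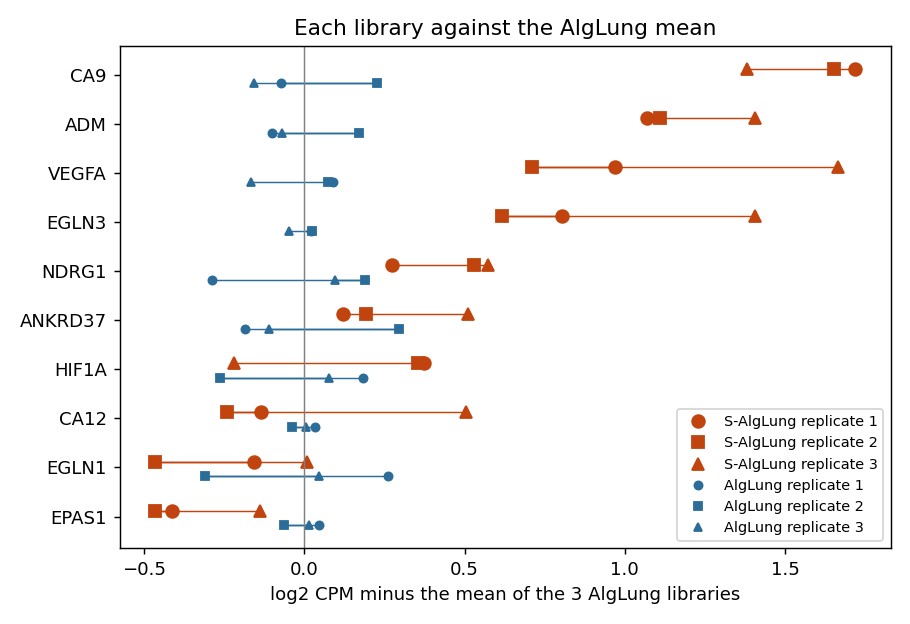
Difference of each library's log2 CPM from the mean of the 3 AlgLung libraries, by gene, with S-AlgLung in orange above AlgLung in blue; symbols mark the replicate. S-AlgLung replicate 3 (triangle) is the rightmost of all libraries for VEGFA at 1.66 and EGLN3 at 1.40, and is the leftmost of the S-AlgLung libraries for CA9 at 1.38 and HIF1A at -0.22.

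Ratios of counts per base of exon within a library do not depend on how libraries are scaled, and 3 such ratios were compared. The log2 ratio of CA12 to CA9 was -0.88, -0.92 and 0.09 in S-AlgLung and 1.07, 0.71 and 1.13 in AlgLung, a difference of -1.54 with no overlap between the groups. With ARHGEF39 counts taken off CA9 it was 0.14, 0.10 and 1.12 in S-AlgLung and 2.75, 2.10 and 2.52 in AlgLung over all exon bases of CA9, and -0.50, -0.53 and 0.48 in S-AlgLung and 2.12, 1.46 and 1.88 in AlgLung over the unshared ones. The difference was -2.004 either way, so its direction held while the sign of the ratio within S-AlgLung did not. The log2 ratio of EGLN3 to EGLN1 was 0.68, 0.80 and 1.11 in S-AlgLung and -0.52, 0.05 and -0.38 in AlgLung, a difference of 1.15, also without overlap. With ENSG00000287856 counts taken off EGLN1 it was 2.28, 2.52 and 2.97 in S-AlgLung and 0.92, 1.74 and 1.44 in AlgLung over all exon bases of EGLN1, and 1.10, 1.34 and 1.79 in S-AlgLung and -0.26, 0.56 and 0.26 in AlgLung over the unshared ones. The difference was then 1.23, and the sign of the ratio in AlgLung depended on the assignment. For both ratios, with and without the subtraction, the 2-sided exact permutation p was 0.10, the smallest that 3 against 3 libraries allow (0.15 adjusted over the 3 ratios with the counts as deposited). The log2 ratio of EPAS1 to HIF1A was -1.60, -1.63 and -0.73 in S-AlgLung and -0.95, -0.61 and -0.88 in AlgLung, with overlapping groups (difference -0.51, exact permutation p = 0.30, adjusted 0.30). With the counts as deposited, HIF1A was the higher of the 2 per base in every library. Named after their values were seen, HIF1A-AS3, HIF1A-AS1 and ENSG00000258964 overlap exons of HIF1A. They had 22.2%, 14.5% and 10.8% of its counts. This ratio was not computed with those counts taken off, so the order of HIF1A and EPAS1 may depend on how shared reads are assigned.

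**Figure D3:**
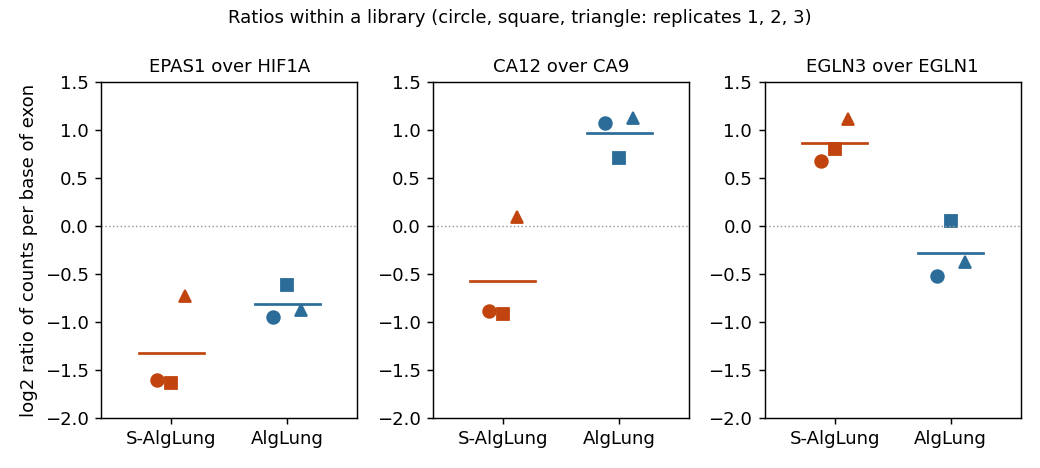
Log2 ratio of counts per base of exon for 3 pairs of genes in each library, S-AlgLung at left and AlgLung at right. Lines are means of 3 libraries, and the dotted line marks equal counts per base. Counts are as deposited, with shared reads left in. CA12 over CA9 averages -0.57 in S-AlgLung and 0.97 in AlgLung, and EGLN3 over EGLN1 averages 0.87 in S-AlgLung and -0.28 in AlgLung.

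Other genes of the pathway were taken from lists by role, without the 10 genes above. The lists were also chosen with earlier results of these data known. The background for counts at an unadjusted p under 0.05 was 1687 higher and 1078 lower of 18544 tested genes. Of 4 other HIF subunits and partners, 3 were tested and 0 called, with ARNT at 34.5 ± 5.04 CPM in S-AlgLung and 28.5 ± 0.933 CPM in AlgLung (log2 fold change 0.28, adjusted p = 0.624) and its relative ARNT2 at a log2 fold change of 0.27 (adjusted p = 0.654). HIF3A had 0 counts in every library. Of 12 genes of oxygen sensing, HIF turnover and coactivation, all were tested and 0 called, with CUL2, a scaffold of the VHL ligase, at a log2 fold change of -0.40 (adjusted p = 0.425) and CITED2, a HIF target that competes for the HIF coactivator, at 0.37 (adjusted p = 0.473). In both lists the number at an unadjusted p under 0.05 was 0, and DESeq2 and limma-voom called 0. CREM on the other strand overlaps only 1.32% of the exon bases of CUL2, and the counts over the whole of CREM were 71.2% of those of CUL2.

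Among the other carbonic anhydrases, 3 rose and 0 fell of 6 tested and 13 listed, where 3.15% of all tested genes rose and 1.99% fell. At an unadjusted p under 0.05 there were 4 higher and 1 lower, and DESeq2 and limma-voom each called 3 higher and 0 lower. CA4, a membrane-anchored form, was at 2.99, 3.21 and 1.85 CPM in S-AlgLung and 0.843, 0.854 and 0.993 CPM in AlgLung (log2 fold change 1.57, SE 0.35, adjusted p = 0.00473). CA11, a related protein without enzyme activity, was at 49.4, 49.99 and 37.9 CPM in S-AlgLung and 22.0, 27.2 and 24.4 CPM in AlgLung (log2 fold change 0.90, SE 0.21, adjusted p = 0.00867). CA14, another membrane-bound form, was at 1.36, 1.31 and 1.95 CPM in S-AlgLung and 0.498, 0.585 and 0.621 CPM in AlgLung (log2 fold change 1.44, SE 0.39, adjusted p = 0.0262). The groups did not overlap for any of these 3 genes, and CA4 and CA14 are low in both hydrogels. With all libraries but AlgLung replicate 1 the number called was 1, and with all but AlgLung replicate 3 it was also 1, in each case leaving out CA11 (adjusted p = 0.116 and 0.115) and CA14 (0.148 and 0.121). Without S-AlgLung replicate 3, CA2 and CA8 were called lower, at -0.86 and -0.80 (adjusted p = 0.0154 and 0.0123), and CA14 was not called (0.0732). CA14 also missed the threshold with total-count scaling (0.0900), without AlgLung replicate 2 (0.101) and without S-AlgLung replicate 1 (0.0638).

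**Figure D4:**
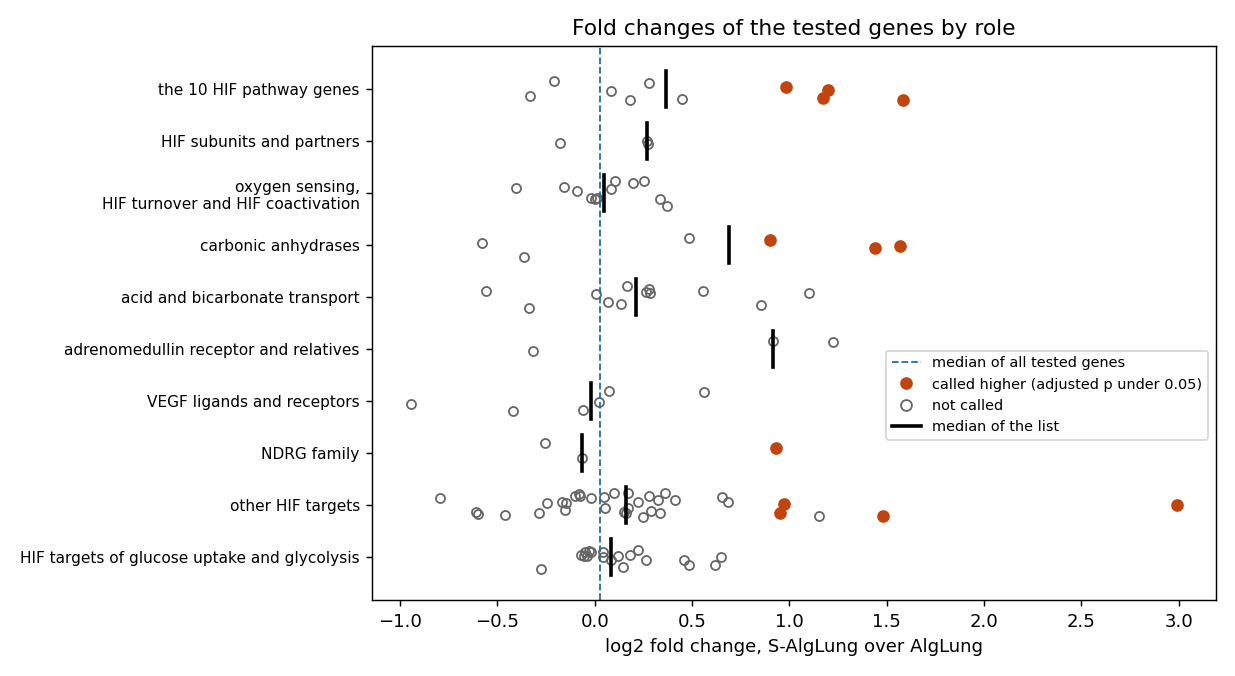
Log2 fold change of S-AlgLung over AlgLung for each tested gene, by role; filled points were called higher, black bars are list medians and the dashed line is the median of all tested genes, 0.03. Called genes are in the carbonic anhydrases (median 0.69), the 10 HIF pathway genes (0.37), the other HIF targets (0.16) and the NDRG family (-0.06). The remaining lists hold 0, among them the adrenomedullin relatives (median 0.92) and the targets of glucose uptake and glycolysis (0.08).

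Genes that act with these products were looked at by role. Of 12 tested acid and bicarbonate transport genes 0 were called, with 3 higher and 1 lower at an unadjusted p under 0.05 and 0 called by DESeq2 and limma-voom. The bicarbonate cotransporter gene SLC4A5 was at a log2 fold change of 0.85 (adjusted p = 0.185), but genes that overlap 16.5% and 47.5% of its exon bases hold 1760% and 3195% of its counts. The sodium-proton exchanger gene SLC9A2 was at -0.56 (adjusted p = 0.232). Of 3 tested relatives of adrenomedullin and its receptor 0 were called, with 2 higher at an unadjusted p under 0.05 and 0 called by DESeq2 and limma-voom. ADM2 was at 5.30, 3.42 and 3.38 CPM in S-AlgLung and 1.57, 2.43 and 2.40 CPM in AlgLung (log2 fold change 0.92, adjusted p = 0.0839). SBF1 on the other strand overlaps only 3.05% of the exon bases of ADM2, and the counts over the whole of SBF1 were 4512% of those of ADM2. RAMP2, a receptor subunit, was at 1.59, 1.69 and 1.17 CPM in S-AlgLung and 0.383, 1.08 and 0.455 CPM in AlgLung (log2 fold change 1.22, adjusted p = 0.107), and RAMP2-AS1 overlaps 34.0% of its exon bases and had 45.1% of its counts. ADM2 and RAMP2 were both called without S-AlgLung replicate 3 (adjusted p = 0.0125 and 0.0248), and RAMP2 also without AlgLung replicate 2 (0.0491). CALCRL, the receptor itself, was at a log2 fold change of -0.32 (adjusted p = 0.826) and is named after its value was seen.

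Of 6 tested VEGF ligands and receptors other than VEGFA 0 were called, with 1 lower at an unadjusted p under 0.05 and 0 called by DESeq2 and limma-voom. FLT4, a receptor for VEGFC, was at a log2 fold change of -0.95 (adjusted p = 0.297) at under 1 CPM on average, and VEGFC was at -0.42 (adjusted p = 0.413). VEGFC was called lower without S-AlgLung replicate 3, at -0.68 (adjusted p = 0.0256). The VEGFA receptors FLT1 and KDR had 0 and 1 counts in all 6 libraries. Of 3 tested genes of the NDRG family other than NDRG1, 1 rose and 0 fell, where 3.15% of all tested genes rose and 1.99% fell. Named after their values were seen, NDRG3 was at a log2 fold change of -0.06 (adjusted p = 0.947) and NDRG4 at -0.26 (0.652). For NDRG4 every S-AlgLung library was below every AlgLung library. NDRG2 rose, at 9.34, 11.9 and 8.85 CPM in S-AlgLung and 4.45, 5.85 and 5.51 CPM in AlgLung (log2 fold change 0.93, SE 0.24, adjusted p = 0.0167). That call was lost with total-count scaling (adjusted p = 0.114), without AlgLung replicate 1, 2 or 3 (0.150, 0.0519 and 0.0996) and without S-AlgLung replicate 2 (0.0829).

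Of 35 other HIF targets outside glycolysis, all were tested, 4 rose and 0 fell, with a median log2 fold change of 0.16, where 3.15% of all tested genes rose and 1.99% fell. At an unadjusted p under 0.05 there were 7 higher and 2 lower, against 1687 and 1078 of all 18544 tested genes. DESeq2 called 5 higher and 1 lower, against 594 and 399 over all genes. With limma-voom 4 were called higher and 0 lower, against 495 and 350 over all genes. STC2, a secreted glycoprotein hormone, was at 24.7, 21.1 and 31.8 CPM in S-AlgLung and 9.43, 10.6 and 7.82 CPM in AlgLung (log2 fold change 1.48, SE 0.23, adjusted p = 7.3e-05). CXCR4, a chemokine receptor, had 32, 38 and 29 counts in S-AlgLung and 2, 3 and 7 counts in AlgLung (log2 fold change 2.99, SE 0.51, adjusted p = 0.000252). Its level was under 2 CPM throughout, so the size of its fold is imprecise. BHLHE40, a transcriptional repressor, was at 363, 384 and 432 CPM in S-AlgLung and 201, 209 and 201 CPM in AlgLung (log2 fold change 0.95, SE 0.24, adjusted p = 0.0161). RRAGD, a nutrient-sensing GTPase, was at 7.98, 7.73 and 10.3 CPM in S-AlgLung and 4.48, 3.10 and 5.63 CPM in AlgLung (log2 fold change 0.97, SE 0.26, adjusted p = 0.0210). In all 4 the groups did not overlap. STC2 and CXCR4 were called without any 1 library, whereas BHLHE40 was not called without AlgLung replicate 1, 2 or 3 (adjusted p = 0.129, 0.0839 and 0.255) and RRAGD without AlgLung replicate 1 or 2 (0.0981 and 0.148) or with total-count scaling (0.149), so that without AlgLung replicate 1 or 2 the number called was 2. PPFIA4 and ANGPTL4 are named after their values were seen. PPFIA4 was at 2.49, 2.15 and 6.68 CPM in S-AlgLung and 1.57, 2.38 and 1.20 CPM in AlgLung. Its groups overlapped, and S-AlgLung replicate 3 was far above the rest (log2 fold change 1.15, adjusted p = 0.0758). PPFIA4 was called with upper-quartile factors (0.0458), without S-AlgLung replicate 2 (0.00368) and with low counts kept in (0.00907). It was not called without S-AlgLung replicate 3. ANGPTL4 (log2 fold change 0.68, adjusted p = 0.122) was called by DESeq2 (0.0488) and without S-AlgLung replicate 3 (0.0209).

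HIF also raises glycolytic enzymes in many cells. Of 19 genes of glucose uptake and glycolysis, all were tested and 0 called, with 2 higher at an unadjusted p under 0.05, 0 called by DESeq2 and limma-voom, and a median log2 fold change of 0.08. ALDOC, an aldolase, was at 157, 213 and 123 CPM in S-AlgLung and 83.8, 130 and 100 CPM in AlgLung (log2 fold change 0.65, adjusted p = 0.185), and ENSG00000265168 on the other strand overlaps 11.3% of its exon bases and had 36.6% of its counts. It was called without S-AlgLung replicate 3, at 0.79 (adjusted p = 0.00495). PFKFB3, which makes an activator of glycolysis, was at 271, 238 and 310 CPM in S-AlgLung and 160, 199 and 175 CPM in AlgLung, groups without overlap (log2 fold change 0.62, adjusted p = 0.188). Named after their values were seen, the glucose transporter gene SLC2A1 was at -0.05 on the log2 fold change scale (SE 0.25, adjusted p = 0.972), the lactate dehydrogenase gene LDHA at -0.03 (SE 0.28, adjusted p = 0.984) and PGK1 at 0.46 (SE 0.28, adjusted p = 0.498). Also named afterwards, DDIT4, an mTORC1 inhibitor on the list of other targets, was at 197, 188 and 185 CPM in S-AlgLung and 272, 326 and 266 CPM in AlgLung. Every S-AlgLung library was below every AlgLung library for DDIT4, and its log2 fold change of -0.60 was not called with edgeR (adjusted p = 0.198) but was called lower with DESeq2 (adjusted p = 0.0364).

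CA9, the gene of the 10 with the smallest p, was set beside 11609 other named genes with a mean log2 CPM of at least 2, by the root mean square difference of their centred log2 CPM over the 6 libraries. The nearest were PRTN3 at 0.13, VANGL2, a planar cell polarity gene, at 0.13, and CALY at 0.16. The CA9 counts were those deposited, and the match was not repeated with ARHGEF39 counts taken off. That subtraction moved the log2 fold change of CA9 from 1.58 to 2.03, so the nearest genes may depend on it. PRTN3, known as a neutrophil serine protease gene, was at 13.5, 13.9 and 9.24 CPM in S-AlgLung and 3.45, 5.04 and 3.15 CPM in AlgLung. The rest of the 10 genes were not among the 3 nearest.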

How the data were processed

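Per the labels' protocols, RNA was extracted with TRIzol and a column kit, and a sequencing company made and sequenced the libraries. Reads were aligned to GRCh38 with STAR 2.7.3a and counted with featureCounts by the authors, per the submitters' processing notes, with its version, annotation and use of strand not given in the sources used here. Raw counts of 62703 genes were deposited, and 62625 of these IDs were found in the gene name table. AlgLung replicate 1 had 2 columns with 0 genes different and was counted as 1 sample. Exon lengths and gene positions are those of the deposited table.

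Genes were kept with filterByExpr (minimum count 10), scaled with TMM and tested with edgeR 4.0.16 in R 4.3.3 (quasi-likelihood F test, S-AlgLung over AlgLung, no block, all 6 libraries, Benjamini-Hochberg over 18544 genes). Adjusted p under 0.05 was called. Each SE was approximated as the absolute log2 fold change over the root of F, and 95% intervals span 1.96 SE on each side. CPM are TMM-scaled, except for cell type markers, which are scaled by total counts. The biological coefficient of variation was 0.215. The script was tested on simulated data. Ratios used a pseudocount of 0.5 counts. The 10 genes and the lists were chosen with earlier results of these data known. The named genes are the 10, for each list up to 4 called genes by smallest p (2 genes where 0 were called), overlapping genes with at least 25% of a named gene's counts, and the 3 genes most like CA9. Alternatives were other scaling, DESeq2 1.42.0, limma-voom (limma 3.58.1), other filters, a stricter threshold, a replicate block and leaving out each library; subtracting an overlapping gene's counts (also in the ratios) was chosen after seeing the data.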

Additional observations from a re-analysis of the deposited data

How the results depend on the processing

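CA9, ADM and VEGFA were called in all 14 other fits, with log2 fold changes of 1.46 to 1.70, 1.05 to 1.29 and 0.81 to 1.35, and at an adjusted p under 0.01 the number of the 10 genes called higher was 3. EGLN3 was called in 11 of 14 (0.68 to 1.13) and lost without AlgLung replicate 1, 2 or 3; the cause was not tested, and these fits hold fewer samples. HIF1A, EPAS1, EGLN1, CA12, ANKRD37 and NDRG1 were called in 0 of 14. CA12 was at -0.22 to 0.22 when 1 library was left out, with the negative value without S-AlgLung replicate 3. Leaving out 1 library gave 3 to 4 of the 10 called higher, 0 lower, and 289 to 891 higher and 244 to 662 lower over all genes, against 584 and 369 with all 6. Total counts alone gave 333 higher and 335 lower (49.9% of calls higher, against 61.3%) with a shift of -0.10 in the median log2 fold change over all genes, and an adjusted p under 0.01 gave 323 and 217; 4 of the 10 genes were called higher with total counts. With the replicate number as a block, 800 genes were higher and 500 lower, with 4 of the 10 higher and 0 lower. ADM2 (adjusted p = 0.0411), RAMP2 (0.0380) and PPFIA4 (0.0459) were also called with the block, which moved the adrenomedullin relatives to 2 called, against 0. The numbers share no stated batch. Same-numbered libraries deviated together at r = 0.07, 0.29 and 0.04 across genes, and S-AlgLung replicate 3 correlated more with AlgLung replicate 1 (0.21) than with its own number. The ratio of CA12 to CA9 kept its direction, at -1.87 to -1.37 without 1 library. With replicate numbers taken as pairs its exact sign-flip p was 0.25, the smallest that 3 pairs allow, so that test could not call it. The ratios of EGLN3 to EGLN1 (1.02 to 1.31) and EPAS1 to HIF1A (-0.80 to -0.35) also kept their direction without 1 library. Genes near 1 CPM, such as CA14, CA4, CXCR4, RAMP2 and FLT4, are the least precise.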
